A study of Brachypodium distachyon and Sorghum bicolor and Panicum virgatum with 44 samples.

Results

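Drought and submergence put separate plants of the same line under opposite water conditions, too little water and too much. Here the 2 stresses were set directly against each other, gene by gene, in above ground tissue of Brachypodium distachyon Bd21, a small temperate grass used as a model for cereals and bioenergy crops. The comparison rests on 4 of the 44 samples of the series, which were the 2 drought and the 2 submergence libraries among its 10 RNA-seq libraries; all genes of the deposited expression files entered by their identifiers, and 23494 of 34310 genes had enough counts to be tested. The 2 control libraries served only to show on which side of unstressed plants each gene lay, and the cold and heat libraries entered the fit to help estimate the spread between replicates. The other 34 samples are PARE libraries (Parallel Analysis of RNA Ends, which sequences uncapped RNA ends such as those left by miRNA cleavage) of Brachypodium, sorghum and switchgrass.

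The drought plants were Bd21 seedlings of 21 days that were lifted out of the soil, had their roots dried on paper towels and were left for 12 h, so that uprooting and lack of water cannot be told apart. The submergence plants were Bd21 seedlings of the same age held for 12 h under at least 5 cm of tap water. The control plants were Bd21 grown in the same way and given neither treatment, and the hour at which they were harvested is not given in the sources used here. All plants grew in soil at 20 °C with 20 h of light and 4 h of dark. Each group had 2 libraries labelled as biological replicates, and p-values measure the spread between such libraries. In bulk tissue, fewer cells of a type and less RNA per cell cannot be told apart.

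Plants losing water accumulate abscisic acid, a hormone that releases protein kinases from inhibition by clade A protein phosphatases 2C and thereby activates bZIP transcription factors, closes stomata and switches on protective genes. Plants under water lose gas exchange rather than water: oxygen and carbon dioxide run short, ethylene is trapped in the tissue, and cells turn to glycolysis and fermentation. MicroRNAs act across both kinds of stress by guiding the cleavage of target mRNAs, many of which encode transcription factors.

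Total expected counts were 9885357 and 10774168 in the drought libraries, 12387471 and 13866005 in the submergence libraries, and 12368365 and 14327937 in the control libraries. Levels are given as CPM, read counts scaled to a common library size with edgeR's TMM factors, which were 0.864 and 0.825 in drought, 1.14 and 1.22 in submergence, and 1.03 and 1.02 in control. On log2 CPM the 2 drought libraries correlated at r = 0.979 and the 2 submergence libraries at r = 0.978, across genes, while drought and submergence libraries correlated at 0.785 to 0.813. As a check of the label for above ground tissue, Bradi1g24870, annotated as a chlorophyll a-b binding protein of the light harvesting antenna, had 434 and 486 CPM in drought, 1285 and 1318 CPM in submergence, and 2657 and 2720 CPM in control. It was detected at high level in every library and was lowest in drought. No root marker was among the genes with a domain description, so root material was not checked.

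Drought and submergence tissue differed in most of the genes tested. At an adjusted p under 0.05 (edgeR's quasi-likelihood test, Benjamini-Hochberg over all tested genes), 13740 of 23494 genes (58.5%) were called, with 6819 higher in drought and 6921 lower in drought (29.0% and 29.5% of the genes tested). An unadjusted p under 0.05 was reached by 63.2% of the genes, 40.1% were called and differed at least 2-fold (1 on the log2 scale), and the drought and submergence libraries did not overlap for 79.7%. The median size of the log2 fold change among the called genes was 1.41, and the median over all tested genes was -0.08. This near even split rests on the scaling: with library size alone, which shifts the median of all genes to -0.57, the calls were 4423 higher and 10932 lower, and with upper quartile scaling 38.3% of the calls were higher. All directions below are therefore relative to the bulk of genes.

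**Figure D1:**
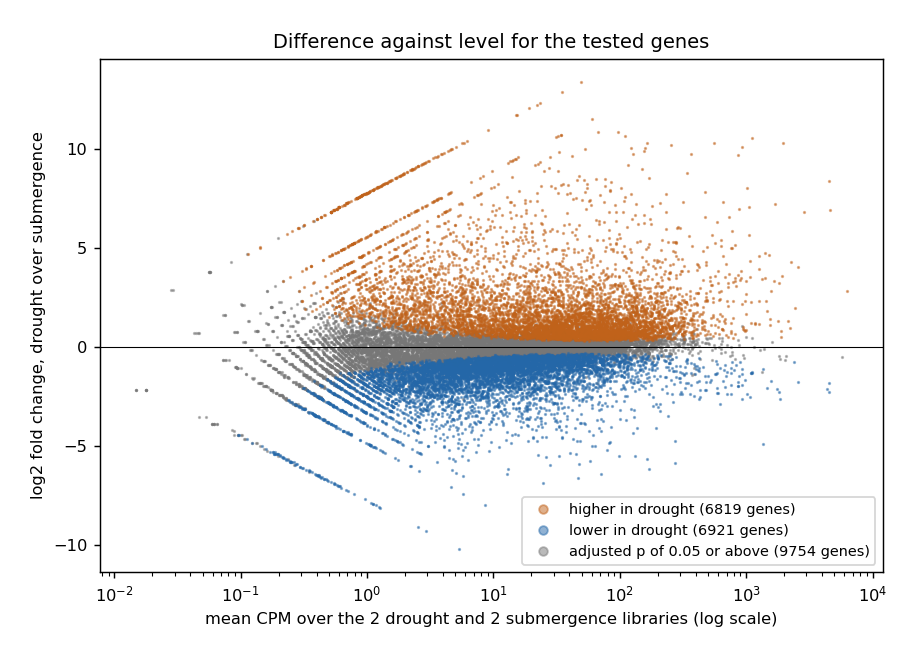
Each point is 1 tested gene, with its mean CPM over the 2 drought and 2 submergence libraries on a log scale and its log2 fold change of drought over submergence. Genes higher in drought (6819) reach much larger differences than genes lower in drought (6921), and the diagonal bands at low CPM are genes with few or no counts in the libraries of one condition.

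Large differences ran mainly upward in drought. A log2 fold change of at least 4 was fitted for 902 genes higher in drought and 284 lower in drought. Fitted values depend on the prior count where one condition has no counts, as for 184 of the higher genes in submergence and 82 of the lower genes in drought. A comparison of the closest libraries, with values under 3 counts raised to 3 counts, gave the same order: 480 called genes were at least 16-fold higher in drought and 58 at least 16-fold lower, and at 4-fold the numbers were 1872 and 854. In addition, 176 genes had at least 10 CPM in both drought libraries and at most 1 CPM in both submergence libraries, against 15 genes with the reverse pattern. Of the 176 genes, 141 were also at or under 1 CPM in both control libraries and none reached 10 CPM in both. Of the 15 genes, none was at or under 1 CPM in both control libraries and 7 had at least 10 CPM in both. With library size alone these patterns held 139 and 39 genes.

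The gene with the largest fitted rise was Bradi2g19170, with 73.6 and 122 CPM in drought and no count in either submergence or control library. It was at least 347-fold higher in drought than in submergence, taking 3 counts per library as the floor. Bradi2g33170 had 81.7 and 57.3 CPM in drought, 0 CPM in both submergence libraries and 0.156 and 0.137 CPM in control, at least 270-fold higher. Both genes were thus read almost only in the drought plants among these 3 conditions.

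Bradi4g19525, Bradi5g26964, Bradi1g64590 and Bradi1g51800 had the same shape, with no counts in submergence and lower bounds of 147-fold, 159-fold, 76.9-fold and 95.5-fold. Bradi4g40850 had 118 and 123 CPM in drought against 1 count over the submergence libraries, a ratio of 3740 with a 95% counting interval of 671 to 148000. Bradi1g73840 had 198 and 191 CPM in drought against 0.142 and 0.0591 CPM in submergence, a log2 fold change of 10.85 (SE 0.28, adjusted p = 1.17e-07). Bradi3g51550 had 162 and 104 CPM in drought against 0 and 0.118 CPM in submergence. None of these genes carries a domain description in the sources used here. All 10 of the largest rises were also called in drought against control, and in all 10 both control libraries lay at or under 1 CPM.

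The largest falls, which are genes lower in drought than in submergence, looked different, since most of these genes were present in unstressed plants. Bradi4g27341 had 0.352 and 0.45 CPM in drought, 38.1 and 59.8 CPM in submergence, and 3.13 and 3.35 CPM in control (log2 fold change of drought over submergence -6.90, SE 0.37, adjusted p = 1.09e-06). Bradi4g40160 had 0.82 and 1.01 CPM in drought, 42.2 and 144 CPM in submergence, and 10.2 and 8.68 CPM in control. In both genes drought lay under control and submergence above it, with no overlap among the 3 groups.

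Bradi3g48790 showed a fall of a different kind, with 10.4 and 8.1 CPM in drought, 480 and 591 CPM in submergence, and 595 and 519 CPM in control (log2 fold change -5.85, SE 0.31, adjusted p = 1.09e-06). Submergence left it at the level of control (log2 fold change of submergence over control -0.06, adjusted p = 0.885). Bradi1g12360, annotated with a domain of the cysteine-rich secretory protein family, to which pathogenesis-related protein 1 belongs, had 2.93 and 6.42 CPM in drought, 143 and 528 CPM in submergence, and 0.469 and 0.752 CPM in control. It was called above control in both stresses, and the submergence libraries differed from each other more than 3-fold.

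The other 6 of the 10 largest falls had log2 fold changes from -6.43 to -5.78. Bradi3g33040, which also carries a miR5181 target site, had 2.34 and 0.901 CPM in drought, 130 and 149 CPM in submergence, and 57.6 and 55.4 CPM in control. Bradi3g29580 and Bradi1g50897 were called under control in drought and not called in submergence against control (adjusted p = 0.13 and 0.0513). Bradi3g10597, Bradi4g29243 and Bradi4g36120 were under control in drought and above it in submergence. Over all 10 falls, drought was called against control in 10 genes and submergence in 7.

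**Figure D2:**
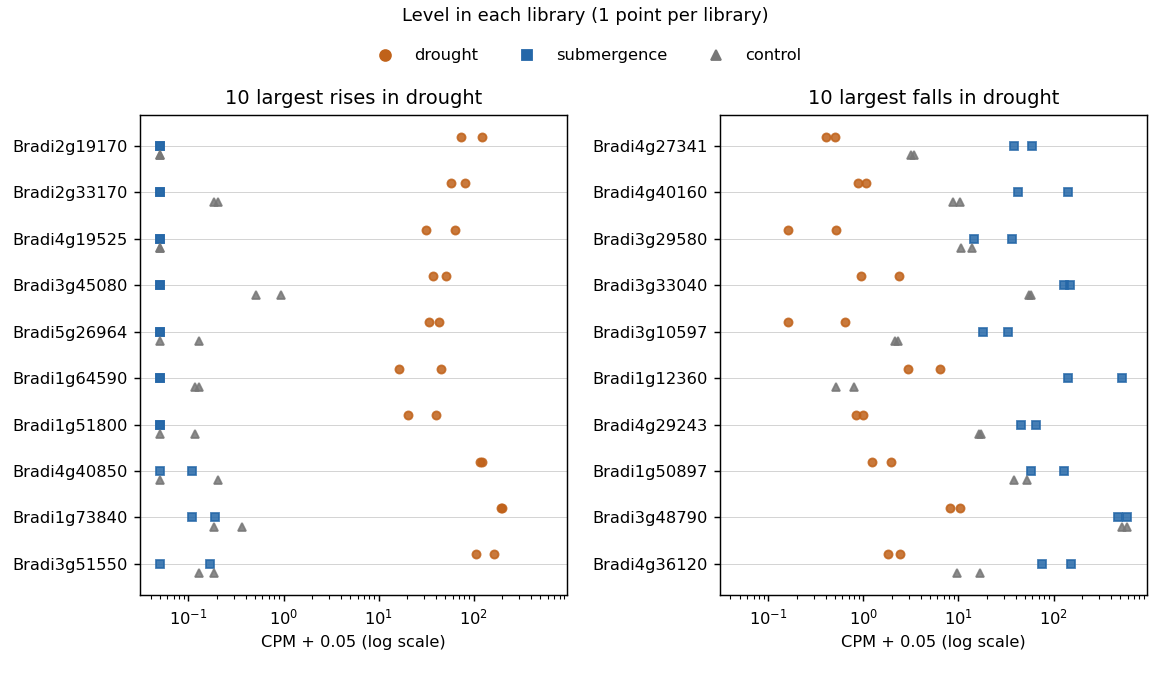
CPM plus 0.05, on a log scale, in each of the 2 drought, 2 submergence and 2 control libraries for the 10 largest rises (left) and the 10 largest falls (right) in drought against submergence, taken from called genes whose 4 libraries average 10 CPM or more and do not overlap. For the rises, control lies with submergence near 0 CPM, while for the falls control lies between the stresses or beside submergence in all genes but Bradi1g12360.

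Among the genes with the most reads, which are not corrected here for transcript length, drought against submergence gave 6 rises and 4 falls in the first 10. Bradi5g10860 had 8404 and 9789 CPM in drought, 78.4 and 73.9 CPM in submergence, and 72.3 and 69.5 CPM in control (log2 fold change of drought over submergence 6.90, SE 0.48, adjusted p = 4.18e-06). Bradi3g43870 had 8672 and 9294 CPM in drought, 23.9 and 30.1 CPM in submergence, and 31.8 and 37.3 CPM in control. Bradi3g51200 had 5311 and 6123 CPM in drought, 66.2 and 37.2 CPM in submergence, and 49.7 and 55.2 CPM in control. These 3 genes were strongly read in drought and lay in submergence within 2-fold of every control library.

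Bradi4g45010 was high in both stresses, with 12565 and 9480 CPM in drought, 2486 and 656 CPM in submergence, and 40.4 and 39.8 CPM in control. Drought was higher than submergence by a log2 fold change of 2.81 (SE 0.69, adjusted p = 0.00609), although the submergence libraries differed from each other almost 4-fold. The 4 falls among these genes followed a common order. Bradi3g26391 had 1350 and 1713 CPM in drought, 8994 and 6010 CPM in submergence, and 12090 and 15037 CPM in control. Bradi4g08800, Bradi4g09125 and Bradi1g56580 were likewise lowest in drought and highest in control, with log2 fold changes of drought over submergence of -1.82, -2.14 and -1.77, and none of the 4 was called in submergence against control.

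The control libraries placed the called genes on the sides of unstressed plants. In 7902 of the 13740 called genes (57.5%) drought alone differed from control, and in 1268 (9.23%) submergence alone did. Both stresses differed from control on the same side in 2660 genes (19.4%), on opposite sides in 648 (4.72%), and neither was called against control in 1262 (9.18%). For reference, 64.9% of all tested genes were called in drought against control (32.1% higher and 32.8% lower in drought) and 31.5% in submergence against control (14.9% higher and 16.6% lower in submergence), and both comparisons share the 2 control libraries. Several of these counts changed strongly when 1 library was left out, which leaves 1 library in its group. The number of genes on opposite sides was 342 without submergence replicate 2, 255 without control replicate 1 and 161 without control replicate 2. Submergence alone differed in 631 genes without submergence replicate 2 and in 542 without control replicate 2. Both differed on the same side in 1602 genes without submergence replicate 2, in 1675 without control replicate 1 and in 1002 without control replicate 2. Neither differed in 2520 genes without control replicate 1 and in 2878 without control replicate 2.

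**Figure D3:**
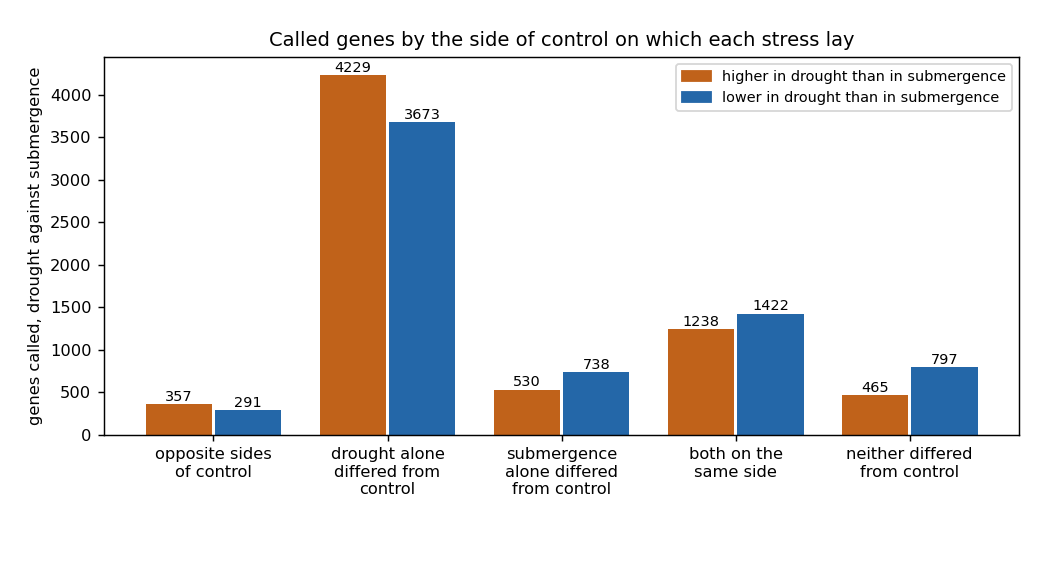
Bars count the genes called between drought and submergence in each of 5 classes, by whether drought and submergence differed from control, with genes higher in drought on the left of each pair and genes lower in drought on the right. The class in which drought alone differed holds 4229 higher and 3673 lower genes and exceeds the other 4 classes.

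Where both stresses moved a gene the same way and still differed from each other, drought had usually moved it further. Of 1230 such genes above control, 1131 were further from control in drought and 99 in submergence. Of 1430 such genes under control, 1323 were further from control in drought and 107 in submergence. Among the genes in which drought alone differed, the median size of the log2 fold change of submergence over control was 0.28, and that of drought over control was 1.66. Where submergence alone differed, the medians were 1.07 for submergence over control and 0.24 for drought over control. Both orders follow from how these 2 classes were defined.

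Genes on opposite sides of control were split into 357 above control in drought and 291 above control in submergence. The 10 with the largest differences, counting only genes that average 10 CPM or more, were all above control in drought and under control in submergence. Bradi1g33670 had 1316 and 2149 CPM in drought, 2.33 and 1.83 CPM in submergence, and 12.4 and 13.5 CPM in control (log2 fold change of drought over submergence 9.70, SE 0.38, adjusted p = 4.31e-07). Bradi3g17920 had 738 and 1146 CPM in drought, 3.89 and 4.37 CPM in submergence, and 9.54 and 10.7 CPM in control. Bradi3g06240 had 66.7 and 61.7 CPM in drought, 0.354 and 0.236 CPM in submergence, and 15.2 and 9.16 CPM in control.

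For Bradi1g33670 and Bradi3g17920 the larger step was the rise in drought, and for Bradi3g06240 it was the fall in submergence (log2 fold changes against control of 2.4 in drought and -5.34 in submergence). Bradi3g14360 had 107 and 94.3 CPM in drought, 0.566 and 0.591 CPM in submergence, and 3.68 and 5.81 CPM in control. Bradi3g45080 had 37.6 and 50.5 CPM in drought, no count in submergence, and 0.469 and 0.888 CPM in control, at least 177-fold higher in drought than in submergence. No overlap among the 3 groups was a condition for choosing these 10 genes, and all 648 genes on opposite sides of control met it.

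At the other end, some genes were called against control in both stresses without a detectable difference between the stresses. The 5 genes of at least 10 CPM with the narrowest interval around 0, while both stresses were called against control, had log2 fold changes of drought over submergence from -0.02 to 0.03. Bradi1g42040, annotated with a homeobox domain found in DNA-binding regulators, had 52.5 and 55.7 CPM in drought, 56.8 and 51.5 CPM in submergence, and 41.5 and 38.5 CPM in control, and the 95% interval of its log2 difference between drought and submergence ran from -0.29 to 0.28. Bradi1g47650 had 52.0 and 50.3 CPM in drought, 48.7 and 51.3 CPM in submergence, and 89.9 and 91.4 CPM in control, with an interval from -0.23 to 0.30. Bradi1g44967, with a trypsin-like peptidase domain, and Bradi5g20920 and Bradi2g20570 were under control in both stresses by similar amounts. The near equality of these 5 genes was a condition of their choice. It depends on the scaling, and with library size alone all 5 genes were lower in drought than in submergence at an adjusted p under 0.05.

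Gene groups were formed from the protein domain descriptions available for 1099 genes, 1075 of which were tested; the descriptions cover genes of chromosome 1 identifiers with a PARE read at a predicted target site, so each group is only a sample of its pathway. Among these 1075 genes, 364 were higher in drought and 280 lower, with a median log2 fold change of 0.09. The counts of each group below can be read beside 29.0% higher and 29.5% lower over all tested genes.

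The group of protein phosphatases 2C and bZIP transcription factors, called the abscisic acid group here, stood mostly higher in drought. The descriptions give no clade of the phosphatases, so a part in abscisic acid signalling is not known for each member. Of 11 genes tested, 7 were higher, 2 lower and 2 not called, beside 29.0% higher and 29.5% lower over all tested genes. The median log2 fold change of the group was 0.77. The largest rise was that of Bradi1g33900, a protein phosphatase 2C, with 583 and 668 CPM in drought, 2.9 and 4.9 CPM in submergence, and 4.61 and 4.44 CPM in control (log2 fold change 7.31, adjusted p = 3.37e-07). The bZIP gene Bradi1g35790 had 89.9 and 83.8 CPM in drought, 10.6 and 11.5 CPM in submergence, and 9.46 and 10.9 CPM in control. In both genes submergence lay beside control and drought far above. The phosphatases Bradi1g26690 and Bradi1g26287 went the other way, with log2 fold changes of -0.60 and -1.41, and without drought replicate 1 or without submergence replicate 2 Bradi1g26287 alone was called. In 7 of the 9 called genes drought alone differed from control, beside 57.5% of all called genes.

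The glycolysis group was small, with 4 genes tested, and held no alcohol dehydrogenase, pyruvate decarboxylase or sucrose synthase. Phosphofructokinases commit sugar to glycolysis. Bradi1g49300 had 96.2 and 80.6 CPM in drought, 54.5 and 56.9 CPM in submergence, and 87.3 and 63.6 CPM in control (log2 fold change 0.67, adjusted p = 0.0142). Bradi1g44460 had 134 and 135 CPM in drought, 102 and 107 CPM in submergence, and 175 and 200 CPM in control. Both lay lower in submergence than in drought. A total of 3 of the 4 genes were called higher in drought, and the calls are weak: 0 were called without drought replicate 1 and with library size alone or upper quartile scaling, and 1 without any other single drought, submergence or control library. Bradi1g12750, with a pyruvate kinase domain, turned to a log2 fold change of -0.00909 with library size alone.

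Genes for photosynthesis and water channels had 2 tested members each. The 2 photosynthesis genes, Bradi1g24870 and the photosystem II gene Bradi1g08718 (7.62 and 8.67 CPM in drought, 33 and 19 CPM in submergence, 31.1 and 28.1 CPM in control), were lower in drought, by log2 fold changes of -1.50 and -1.67. The 2 genes of the major intrinsic protein family, the family of aquaporins, diverged. Bradi1g28760 had 1857 and 2679 CPM in drought, 774 and 518 CPM in submergence, and 466 and 435 CPM in control. Bradi1g45200 had 6.91 and 7.99 CPM in drought, 18.5 and 12.2 CPM in submergence, and 108 and 106 CPM in control, so that it was under control in both stresses and lower in drought.

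Of 16 ribosomal protein genes tested, none was higher in drought and 7 were lower, with a median log2 fold change of -0.23 over the group. Bradi1g07370, a ribosomal protein S9/S16 gene, had 23.7 and 27.1 CPM in drought, 132 and 77.7 CPM in submergence, and 163 and 172 CPM in control (log2 fold change -2.04, adjusted p = 6.17e-05). Bradi1g21850, a ribosomal protein L6 gene, had 18.9 and 21.2 CPM in drought, 39.8 and 43.2 CPM in submergence, and 85.2 and 115 CPM in control. All 7 called genes were under control in both stresses and lower in drought. Over all called genes, 19.4% differed from control on the same side in both stresses. The calls numbered 2 without drought replicate 1, 3 without drought replicate 2 and 3 without submergence replicate 1, and DESeq2 called 1 member of the group higher.

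Genes with pentatricopeptide repeat or DYW domains, whose proteins bind and edit RNA in chloroplasts and mitochondria, were lower in drought in 17 of 30 cases and higher in 3, with a median log2 fold change of -0.88. Bradi1g48080 had 2.23 and 3.49 CPM in drought, 17.5 and 15.9 CPM in submergence, and 27.5 and 37.9 CPM in control (log2 fold change -2.54, adjusted p = 3.76e-05). Bradi1g01021 had 11.5 and 7.65 CPM in drought, 47.3 and 45.2 CPM in submergence, and 88.4 and 101 CPM in control. Both were lowest in drought and highest in control. The 3 higher members were Bradi1g15500, Bradi1g02535 and Bradi1g20150, with log2 fold changes of 1.40, 1.36 and 1.03, and 1 of the group was called higher without drought replicate 1 or with library size alone.

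Transcription factor families gave 14 higher and 9 lower genes among 42 tested (median log2 fold change 0.18), near the shares over all tested genes (29.0% higher and 29.5% lower), and with library size alone 8 higher and 17 lower. Bradi1g04150, of the NAC family (no apical meristem domain), had 2297 and 2580 CPM in drought, 108 and 93.1 CPM in submergence, and 30.3 and 34.0 CPM in control (log2 fold change 4.60, adjusted p = 1.32e-06), above control in both stresses. Bradi1g32330, with a Myb-like domain, had 174 and 203 CPM in drought, 33.9 and 33.1 CPM in submergence, and 32.4 and 28.4 CPM in control. NAC and Myb families are known for members that act in stress responses of many plants. On the lower side, Bradi1g45220, of the TCP family that acts in the growth of leaves and branches, had 3.4 and 1.13 CPM in drought, 16.1 and 16.1 CPM in submergence, and 12.4 and 11.2 CPM in control. The helix-loop-helix gene Bradi1g13980 had 11.6 and 14.2 CPM in drought, 59.5 and 91.4 CPM in submergence, and 24.6 and 25 CPM in control, on opposite sides of control in the 2 stresses.

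Of 10 cell wall genes tested, 4 were higher and 3 lower, beside 29.0% higher and 29.5% lower over all tested genes. Bradi1g20370, with an X8 domain that binds callose, had 210 and 243 CPM in drought, 23.1 and 21.2 CPM in submergence, and 33.7 and 29 CPM in control (log2 fold change 3.35, adjusted p = 2.07e-06). Bradi1g25107, a cellulose synthase gene, had 1.17 and 2.7 CPM in drought, 27 and 16.4 CPM in submergence, and 29.5 and 34.7 CPM in control. Another X8 domain gene, Bradi1g16230, went the other way, with 1.17 and 1.35 CPM in drought, 9.76 and 8.27 CPM in submergence, and 15.2 and 14.4 CPM in control. The multicopper oxidase gene Bradi1g37600 had 15.6 and 40.5 CPM in drought, 0.425 and 0.532 CPM in submergence, and 7.82 and 11.6 CPM in control. For Bradi1g37600 the call against control was in submergence, where the gene fell, and not in drought.

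Genes of the cytoskeleton and chromatin were 7 higher and 5 lower of 18 tested, beside 29.0% higher and 29.5% lower over all tested genes. With library size alone 3 were higher. Of the 7 higher ones, 3 carry a kinesin motor domain, among them Bradi1g45833 with 267 and 351 CPM in drought, 121 and 85.6 CPM in submergence, and 185 and 173 CPM in control. Another of the 7, Bradi1g21900 (log2 fold change 1.51), is described as a histone-like transcription factor (CBF/NF-Y) and entered through the word histone. Tubulin genes, the subunits of microtubules, included Bradi1g23770, with 62.3 and 45.3 CPM in drought, 313 and 315 CPM in submergence, and 373 and 398 CPM in control. The linker histone gene Bradi1g05330 had 24.1 and 14.6 CPM in drought, 157 and 153 CPM in submergence, and 178 and 166 CPM in control (log2 fold change -3.0, adjusted p = 5.2e-06). The tubulin and histone genes named here stayed near control in submergence and were far under it in drought.

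A set of genes with the salt stress response/antifungal domain, which is found in cysteine-rich receptor-like kinases and secreted proteins, gave 2 higher and 5 lower of 11 tested, with a median log2 fold change of -1.25. The largest differences were those of genes lower in drought than in submergence. Bradi1g25552 had 24 and 14.6 CPM in drought, 169 and 190 CPM in submergence, and 20.9 and 19.3 CPM in control (log2 fold change -3.22, adjusted p = 4.8e-05). In Bradi1g25552 submergence alone differed from control, and drought lay near it. Bradi1g25540 had 11 and 6.19 CPM in drought, 72.2 and 107 CPM in submergence, and 25.6 and 27.9 CPM in control. Bradi1g25588 and Bradi1g25697 were the 2 higher genes, and Bradi1g25588 had 8.44 and 8.89 CPM in drought, 2.05 and 3.37 CPM in submergence, and 1.56 and 1.09 CPM in control. The lower calls numbered 3 without drought replicate 1 or without submergence replicate 2, and 1 gene was called higher with library size alone, without drought replicate 2, without submergence replicate 1 or without either control library.

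Chaperone genes were 5 higher and 4 lower of 19 tested, auxin-related genes 3 and 2 of 9, and genes with a plastocyanin-like domain 2 and 2 of 7, beside 29.0% higher and 29.5% lower over all tested genes. With library size alone the chaperone calls turned to 2 higher and 7 lower and the auxin-related genes called lower were 5. Bradi1g30113, with a DnaJ domain found in partners of Hsp70, had 254 and 272 CPM in drought, 59.5 and 48.3 CPM in submergence, and 14.6 and 5.54 CPM in control. Bradi1g34340, described as AUX/IAA family, a domain that auxin repressors share with auxin response factors, had 166 and 186 CPM in drought, 35.2 and 51.9 CPM in submergence, and 29.3 and 23.2 CPM in control. Bradi1g32840, with a plastocyanin-like domain that binds copper in many of its members, had 1026 and 836 CPM in drought, 8.49 and 11.3 CPM in submergence, and 8.05 and 8.06 CPM in control (log2 fold change 6.55, adjusted p = 4.69e-06). On the lower side, Bradi1g02800 (DnaJ domain) and Bradi1g43705 (heat shock factor binding protein) had log2 fold changes of -0.92 and -0.75, Bradi1g18200 (GH3 auxin-responsive promoter) and Bradi1g32547 (AUX/IAA family) -1.94 and -0.75, and the plastocyanin-like genes Bradi1g45710 and Bradi1g24121 -1.42 and -1.10. The higher chaperone calls numbered 2 or 3 without any single drought or submergence library, the lower ones 2 without drought replicate 2 or submergence replicate 1, and without drought replicate 1 the plastocyanin-like genes called higher were 4.

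**Figure D4:**
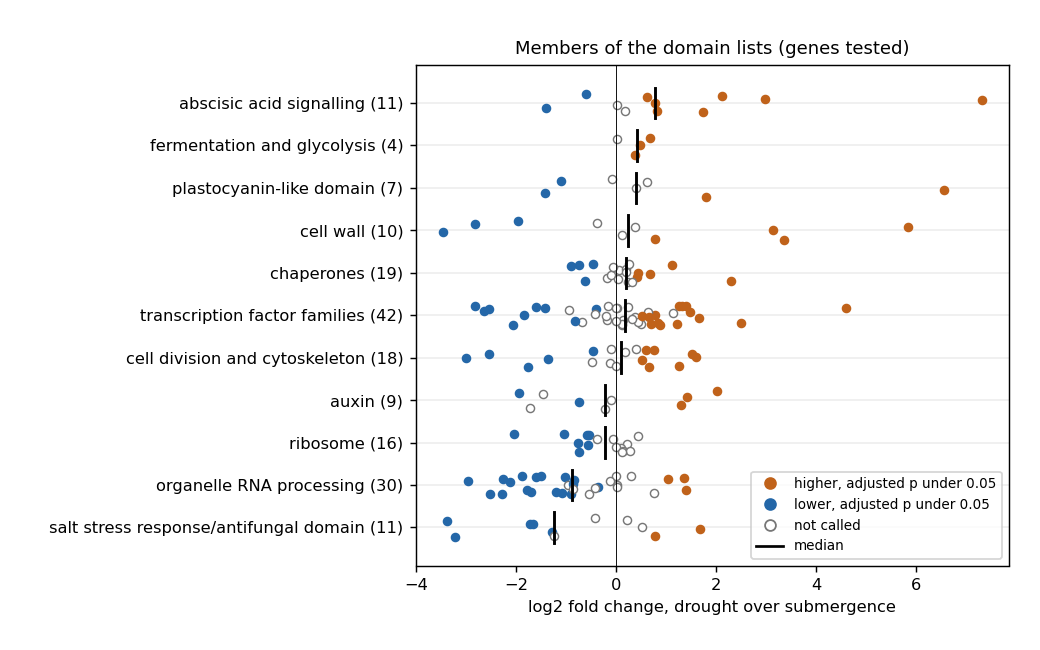
Each point is the log2 fold change of drought over submergence of 1 tested gene, for the domain groups with at least 3 tested genes (number tested in brackets); filled points passed an adjusted p under 0.05, open points did not, and the black line is the group's median. The abscisic acid group has the highest median (0.77), while organelle RNA processing (-0.88) and the salt stress response/antifungal domain (-1.25) have the lowest.

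Targets of miRNAs formed the second kind of group. The deposited Brachypodium table of predicted sites has 190 genes at prominence Level 3 or 4, and its values are not split by stress. The levels score the PARE reads at the cleavage position by abundance, rank and share within the transcript. A Level 3 site can still rest on few reads, such as an abundance of 1 for Bradi3g34617 (miR5200) and 2 for Bradi2g39277 (miR5058). Of the 190 genes, 146 were tested, 43 were higher in drought and 38 lower, close to the shares over all tested genes (29.0% and 29.5%), and the median log2 fold change was -0.08. Their mRNA levels were measured here, not their cleavage. The mature miRNAs below guide cleavage in the families described in most detail, and are written 5′ to 3′ as the deposited table gives them, with the seed (bases 2 to 8) in capitals.
miR5058: aACAGUUGagggaugaaaaaca
miR159b-3p.1: uUUGGAUUgaagggagcucug
miR164c-5p: uGGAGAAGcagggcacgugcu
miR156a: uGACAGAAgagagagagcaca
miR160e-5p: uGCCUGGCucccugaaugcca
miR166h-3p: uCGGACCAggcuucaaucccu
miR528-5p: uGGAAGGGgcaugcagaggag
miR172a-3p: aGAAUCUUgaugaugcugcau
miR172d: aGAAUCCUgaugaugcugcag
miR5200c: uGUAGAUAcucucuaaggcuu
A family's sites can come from several arms with other seeds, so the counts below are over the genes whose site is listed for a miRNA with the printed seed, unless all arms are named. They can be read beside 29.0% higher and 29.5% lower over all tested genes.

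All 3 tested targets of miR5058 were higher in drought. Bradi4g00340 had 131 and 82.7 CPM in drought, 0 and 0.177 CPM in submergence, and 0.0782 and 0 CPM in control, a ratio of drought to submergence of 1100 with a 95% counting interval of 377 to 5350. Bradi2g39277 had 3.63 and 5.4 CPM in drought against 0 and 0.118 CPM in submergence, a ratio of 70.5 with an interval of 18.9 to 592. Bradi3g30457 had 272 and 260 CPM in drought, 157 and 142 CPM in submergence, and 176 and 182 CPM in control. In all 3 drought alone differed from control, as it did in 57.5% of all called genes.

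The printed 3p seed of miR159, which in plants targets GAMYB-like transcription factors, had 3 tested targets, all higher in drought (median log2 fold change 1.89). Bradi2g06832 had 6.91 and 7.43 CPM in drought, 0.849 and 0.945 CPM in submergence, and 0.391 and 0.752 CPM in control (log2 fold change 2.98, adjusted p = 0.000108). The other 2 tested genes of the family, Bradi3g57890 and Bradi5g11020, have their sites from the 5p arm, and neither was called (log2 fold changes -0.07 and 0.06).

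MiR164 targets NAC genes in many plants. Of 5 tested targets with the printed seed 3 were higher in drought and 1 lower. Bradi3g46900 had 47.2 and 54.7 CPM in drought, 2.26 and 2.95 CPM in submergence, and 1.33 and 0.615 CPM in control (log2 fold change 4.28, adjusted p = 2.39e-06). Bradi1g32660, which carries the no apical meristem domain, had 22 and 19.9 CPM in drought, 7.92 and 8.15 CPM in submergence, and 2.97 and 1.71 CPM in control. Bradi4g42720 went the other way, with 6.91 and 5.29 CPM in drought, 25.5 and 23.4 CPM in submergence, and 19.2 and 17.2 CPM in control.

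MiR156, the miRNA of SPL genes that time the change from juvenile to adult growth, had 4 targets higher and 1 lower among 9 tested. Bradi3g57080 had 566 and 639 CPM in drought, 117 and 113 CPM in submergence, and 74.1 and 71.2 CPM in control (log2 fold change 2.39, adjusted p = 1.03e-05). Bradi3g41250 had 0.469 and 0.901 CPM in drought, 2.41 and 1.89 CPM in submergence, and 4.61 and 6.15 CPM in control. Without drought replicate 2 or without submergence replicate 2 the higher calls in this family were 2, and with library size alone 2 were higher and 3 lower. For the printed 5p seed of miR160, the miRNA of auxin response factors, 2 of 6 targets were higher and 1 lower; 1 was called higher without either of the same 2 libraries, and 2 were lower with library size alone. Bradi3g06487 had 66.7 and 105 CPM in drought, 24.5 and 19.3 CPM in submergence, and 24.4 and 21.9 CPM in control, and Bradi3g49320 had 3.16 and 2.7 CPM in drought, 13.7 and 16 CPM in submergence, and 21 and 29.1 CPM in control.

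On the lower side, miR172 targets, members of which carry the AP2 domain of flowering time regulators, were lower in drought in 3 of 5 cases and higher in none (median log2 fold change -1.57). Bradi1g53650 had 15.9 and 17.3 CPM in drought, 41.5 and 57.5 CPM in submergence, and 30.2 and 25.4 CPM in control, on opposite sides of control in the 2 stresses (log2 fold change -1.57, adjusted p = 0.000105). Bradi1g03880 had 2.7 and 1.13 CPM in drought, 8.07 and 7.91 CPM in submergence, and 7.04 and 7.72 CPM in control. Bradi2g37800, with the most reads of the 5, had 173 and 221 CPM in drought, 188 and 185 CPM in submergence, and 185 and 164 CPM in control, and did not pass the test.

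All 3 tested miR5200 targets were lower in drought, but 2 of them were read at under 1 CPM in every library of these 3 groups, and the third is the ribosomal gene Bradi1g21850. Bradi3g34617 had no count in drought and 0.495 and 0.532 CPM in submergence, at least 1.41-fold lower in drought, and 2 of the 3 targets were called when any single drought, submergence or control library was left out. MiR528, a monocot miRNA with targets among copper proteins, had 1 higher and 3 lower of 6. Its higher target is the multicopper oxidase gene Bradi1g37600. Bradi1g59510 had 1.87 and 1.13 CPM in drought, 10.9 and 14.4 CPM in submergence, and 16.5 and 22.5 CPM in control, and Bradi3g14570 had 3.16 and 1.91 CPM in drought, 13.4 and 15.9 CPM in submergence, and 9.85 and 8.06 CPM in control.

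The printed 3p seed of miR166, the miRNA of class III homeodomain-leucine zipper genes that pattern leaves, had 4 lower and none higher of 6 tested targets, with a median log2 fold change of -0.56. The number called lower was 1 without drought replicate 1 and 2 without any other single drought or submergence library. Bradi3g42080, called higher (log2 fold change 0.68), has its site from 5p arms of the family. MiR396, the miRNA of growth-regulating factors, had 3 lower and none higher of 11, a share of lower genes near that over all tested genes, and 8 were lower with library size alone. Of 5 tested miR319 targets 1 was higher and 3 lower, and none was higher with library size alone. Bradi2g06890 was the higher one, with 36 and 37.6 CPM in drought, 25.5 and 20.1 CPM in submergence, and 53.1 and 53.4 CPM in control, under control in both stresses. Bradi3g42240 had 0.469 and 0.563 CPM in drought, 8.91 and 10.6 CPM in submergence, and 8.05 and 10.3 CPM in control (log2 fold change -4.22, adjusted p = 1.8e-05). Among 7 tested targets of miR5174, over all its arms and seeds, 3 were higher and 2 lower, and Bradi2g53510 had 2.7 and 4.73 CPM in drought and no count in either submergence or control library, at least 12.7-fold higher in drought.

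**Figure D5:**
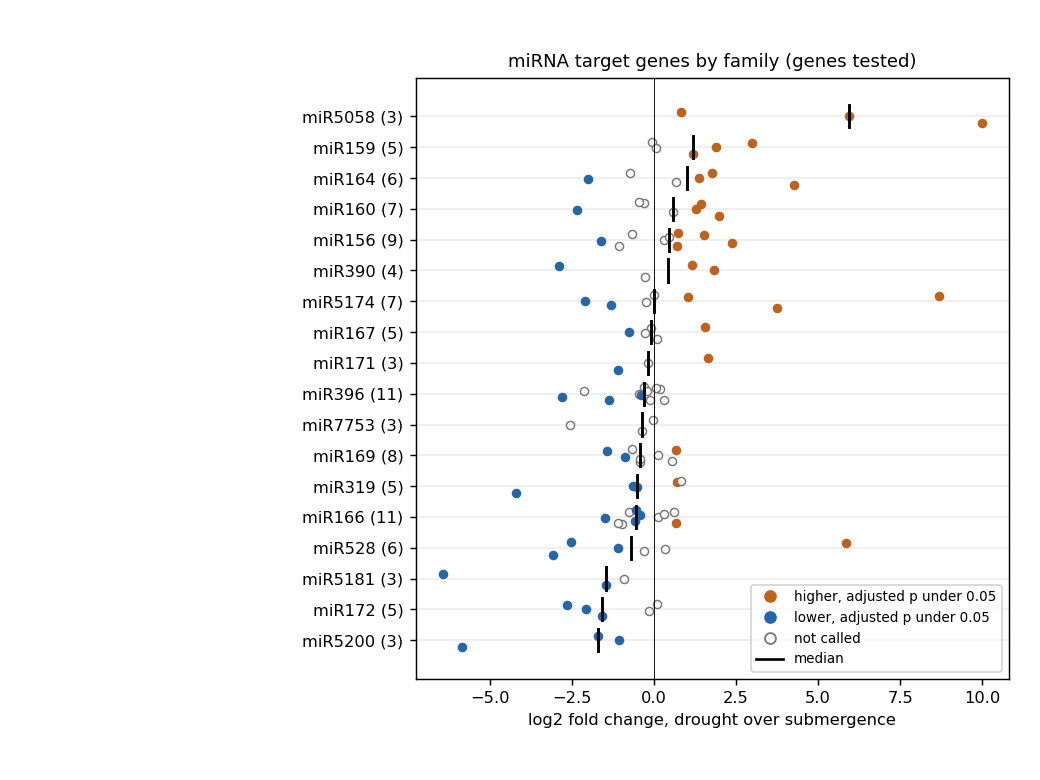
Each point is the log2 fold change of drought over submergence of 1 tested target gene, for the miRNA families with at least 3 tested Level 3 or 4 targets (number tested in brackets, all arms of a family together); filled points passed an adjusted p under 0.05, open points did not, and the black line is the family's median. Medians run from 5.95 for miR5058 to -1.71 for miR5200, and most families hold both higher and lower targets.

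The study itself named 10 target genes, 9 of which it selected on these samples, so their directions are not independent evidence. In this comparison 4 were higher in drought, 3 lower and 3 not called. TIR1 (Bradi2g35720), an auxin receptor and a target of miR393, had 189 and 259 CPM in drought, 100 and 99 CPM in submergence, and 45.4 and 42.5 CPM in control (log2 fold change 1.17, SE 0.17, adjusted p = 0.0003). LCR (Bradi2g59200), an F-box gene and the target of miR394, had 25.8 and 28.5 CPM in drought, 48 and 44 CPM in submergence, and 30.5 and 32.9 CPM in control. TIR1 was thus above control in both stresses and most in drought, and LCR was above control in submergence alone.

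The GRAS gene Bradi3g50930 had 12.1 and 13.1 CPM in drought, 30.9 and 23.3 CPM in submergence, and 44.1 and 46.7 CPM in control. AGO1a (Bradi3g51077), which encodes the Argonaute that carries most miRNAs in plants, had 5.39 and 4.73 CPM in drought, 14.6 and 17.3 CPM in submergence, and 13.6 and 13.7 CPM in control (log2 fold change -1.66, SE 0.18, adjusted p = 4.85e-05). SPL11 (Bradi3g05510) had 34.5 and 38.8 CPM in drought, 26.2 and 19.1 CPM in submergence, and 16.4 and 14.2 CPM in control. For NF-YA (Bradi1g11800) the log2 difference was 0.14 with a 95% interval from -0.19 to 0.47, and for GRF (Bradi3g52547) and the F-box gene Bradi5g08680 it was -0.30 and -0.26, neither called. The study gives Bradi5g08680 as another TIR1-like target of miR393, and unlike Bradi2g35720 it was not called here. The 2 genes without a name, Bradi2g38552 and Bradi2g28153, were higher in drought by 1.83 and 0.63 on the log2 scale. Calls for SPL11 and Bradi2g28153 were lost when a drought or submergence library was left out (adjusted p up to 0.0721 and 0.142).

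Isoform use was compared through the deposited length of each gene, which is the length of its transcripts weighted by their estimated abundance. The comparison took in 3762 genes with several annotated transcripts and at least 10 CPM in all 4 libraries. No test of length was run, and lengths did not overlap between drought and submergence in 1784 of these genes. A difference of at least 200 bases without overlap was found in 99, with 46 longer in drought and 53 shorter. Of these 99 genes, 49 were also called in level, beside 58.5% of all tested genes, a share that also covers genes under 10 CPM. Bradi5g12820 had weighted lengths of 4051 and 4086 bases in drought, 3542 and 3562 bases in submergence, and 3467 and 3538 bases in control. Bradi3g40350 had 2218 and 2214 bases in drought, 2624 and 2615 bases in submergence, and 2520 and 2335 bases in control. Neither gene was called in level (adjusted p = 0.0963 and 0.881), so their libraries differed in the estimated mix of isoforms and not detectably in total level.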

How the data were processed

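RNA-seq libraries of above ground Bd21 tissue (ScriptSeq kit, Illumina HiSeq) were mapped by the authors to the Brachypodium v3.1 genome, and the deposited RSEM files give expected counts, TPM values and an isoform-weighted length per gene; the processing notes name STAR 2.5.3a, RSEM 1.2.31 and Bowtie 0.12.7. From 13.3% to 15.6% of the expected counts were not whole and all were rounded. The deposited TPM values served only for an alternative with a pseudocount of 1. The deposited table of Brachypodium target sites gives 1 abundance and 1 level score per site over all its libraries. The groups used only the genes, miRNAs and levels of its sites, and abundance is quoted only for single sites. The sorghum and switchgrass tables were not used.

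Genes were kept by filterByExpr, scaled by TMM and fitted by edgeR 4.0.16 in R 4.3.3 with all 10 libraries and no covariate, with Benjamini-Hochberg adjustment at 0.05. Each SE was obtained from the fold change (log2) and its F statistic, as the size of one over the root of the other. Intervals of count ratios and floors of 3 counts cover counting error only. The 95% intervals of log2 differences use the SE of the fit and so include the spread between libraries. Alternatives used DESeq2 1.42.0, limma 3.58.1 on log2(TPM + 1), other scalings, filters and thresholds, fewer or thinned libraries, a replicate block and each library left out.

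Named genes were the 10 largest rises and 10 largest falls among called, non-overlapping genes averaging 10 CPM or more, the 10 called genes with the most reads, up to 2 rises and 2 falls per group with at least 3 tested genes, the 10 genes of the study, the 10 largest differences on opposite sides of control, and 5 genes with the narrowest interval around 0. Groups came from words in domain descriptions of the study's supplement, of which the rows given were used, and 5 matches inside longer words were left out. A few group members, isoform examples and genes shown for their level in a family were added after their values were seen. None of the 31335 genes of the RefSeq table matched by identifier. Counts of miRNA targets by seed were added after the family counts were seen. The comparison, groups and rules were chosen with earlier results of these data known.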

Additional observations from a re-analysis of the deposited data

Results flagged for a closer look

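Of the genes that drought and submergence moved to opposite sides of control, the 10 with the largest difference between the stresses are given here because the effect of each stress against the same control plants had the opposite sign, with an adjusted p under 0.05 for each stress and for the direct difference (edgeR's quasi-likelihood test). The fitted log2 fold changes of drought over submergence were 12.23 for Bradi3g45080, 9.70 for Bradi1g33670, 9.50 for Bradi3g14946, 7.86 for Bradi3g49810 and 7.83 for Bradi3g17920. They were 7.74 for Bradi3g06240, 7.51 for Bradi3g14710, 7.42 for Bradi3g14360, 7.36 for Bradi1g68260 and 6.93 for Bradi2g19910. The value of Bradi3g45080, which had no count in submergence, depends on the prior count of the fit. Its control libraries had only 0.469 and 0.888 CPM, so its place under control in submergence rests on few reads. For Bradi3g14946, with 25.7 and 34.2 CPM in drought against 0 and 0.0591 CPM in submergence, the ratio of counts was 933 with a 95% interval of 167 to 36900. The 2 drought libraries of Bradi3g14710 differed most among these genes, with 44.6 and 136 CPM, against 0.637 and 0.354 CPM in submergence.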

How the results depend on the processing

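With library size alone 4423 genes were higher and 10932 lower in drought (28.8% higher), 996 lay on opposite sides of control and the median log2 fold change was -0.566; upper quartile scaling gave 38.3% higher and a median of -0.324. Limma on log2(TPM + 1) called 10753 genes lower (29.8% of calls higher, median -0.425), and submergence alone differed in 1928. With at least 10 CPM in 2 libraries, drought alone differed in 4951 genes and neither stress in 588. Opposite sides, submergence alone and same side held 218, 667 and 1025 genes at a log2 fold change of at least 1, and 199, 605 and 1058 at an adjusted p under 0.01. Leaving out 1 library gave 161 to 586 genes on opposite sides, 542 to 1144 with submergence alone, 1002 to 2112 on the same side and 944 to 2878 with neither; leaving out control libraries was added after seeing the data. The cause of these shifts was not tested.

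Of 131 named genes, 30 changed call or direction under at least 1 of 18 alternatives. Direction turned with library size alone and with limma for Bradi1g12750 (-0.00909 and -0.0323), Bradi1g47650 (-0.452 and -0.417), Bradi5g20920 (-0.461 and -0.423) and Bradi2g20570 (-0.465 and -0.433). DESeq2 called 12654 genes, the 4 libraries alone 12291 (a fit that gives no side of control) and thinned libraries 13546. A replicate block gave 13455 calls; same-numbered libraries did not deviate together (r of 0.0146 between drought and submergence, -0.174 to 0.137 over all pairs of groups), so the numbers were not taken as pairs. The floor of 3 counts was 0.149 to 0.352 CPM over the libraries, and genes filtered out for low counts (10816) were not tested.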

Other observations

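Among 30 domain families with at least 5 tested genes, a few not described above are given here; they were picked after their values were seen, and 29.0% of all tested genes were higher and 29.5% lower in drought. Genes with an alpha/beta hydrolase domain, found in many enzymes that cleave esters, were 5 higher and 3 lower of 8, with a median log2 fold change of 1.86. F-box-like genes, whose products select proteins for degradation, were higher in 4 of 5 and lower in none (median 0.65), while genes described as F-box domain were 1 higher and 1 lower of 5 (median 0.22). Genes with an N-terminal leucine rich repeat domain, common in receptor kinases, were lower in 5 of 8 and higher in none (median -0.75). Genes of the triose-phosphate transporter family, some members of which carry sugar phosphates across plastid membranes, were 1 higher and 4 lower of 5 (median -0.62).

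Transcripts of genes higher in drought had a median length of 1911 bases, those of genes lower in drought 1792 bases, and those of genes not called 1744 bases.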
